A study of Mus musculus with 17 samples.

Results

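TIM4+CD206hi Kupffer cells (KCs) from tumour-free mouse liver were compared with TIM4+CD206+ KCs from tumour-free liver by RNA sequencing. The comparison holds 6 of the 17 samples of the series, 3 of each subset, chosen by the population and treatment that their labels name. The cells of both subsets came from the liver of untreated animals, and no allele, transgene or deletion is named for them. KCs were gated as CD45+F4/80+TIM4+ cells with lymphocytes and neutrophils gated out, CD3, NKp46 and Ly6G being among the markers used, and were divided by their CD206 staining into a CD206+ and a CD206hi gate. Strain, age and the number of animals behind a sample are not given in the labels, so the spread between the 3 samples of a subset may be technical. Beside these samples the series holds the same subsets 2 weeks after tumour cells were injected into the portal vein, which are set beside the tumour-free values near the end, and KCs of an Id3 deletion that are not used here.

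KCs are the resident macrophages of the liver. They lie in the sinusoids, in contact with the sinusoidal endothelial cells that line them, and clear particles, dying cells, old red cells and bacterial products from portal blood. TIM4 is a receptor for phosphatidylserine on dying cells and marks KCs of embryonic origin. CD206, the mannose receptor encoded by Mrc1, binds and takes up mannosylated glycoproteins and is also made by liver sinusoidal endothelial cells.

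The deposited values of the subsets are log2 values normalized separately in 2 tables, so genes were compared by rank. In each sample a gene received the percentile of its value among the 13110 genes, of 25124 listed, with at least log2(10) in 3 samples of both tables. A gene is called higher or lower in CD206hi KCs where its 3 percentiles in one subset all lay outside the 3 of the other and the means were at least 10 points apart. This call is a description without a p-value, because no test across separately normalized tables is sound. The percentile has little room at its top, so that the most abundant genes cannot pass 10 points, and log2 differences are given beside it for the genes that matter.

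The values, taken back to the linear scale and divided by 1000000, summed to between 33.9 and 39.7 per sample. Across the ranked genes, samples of CD206+ KCs correlated with Spearman's rho of 0.96 to 0.99, samples of CD206hi KCs with 0.90 to 0.96, and samples of different subsets with 0.76 to 0.86. CD206hi replicate 3 stood farthest from its group. Genes of low GC content and long transcripts ranked higher in CD206hi KCs. Across 12935 genes, the percentile difference had a rho of −0.53 with GC content and 0.39 with transcript length, as a description in which the points share the same 6 libraries. Of the 2587 genes with the lowest GC content 50.1% were called higher and 3.5% lower, against 5.7% and 39.3% of the 2587 genes with the highest. Each list below is therefore also counted after the trends with GC content and length were removed from each sample, a setting added after the data were seen. How much of the difference between the tables these trends carry for technical reasons was not tested.

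**Figure D1:**
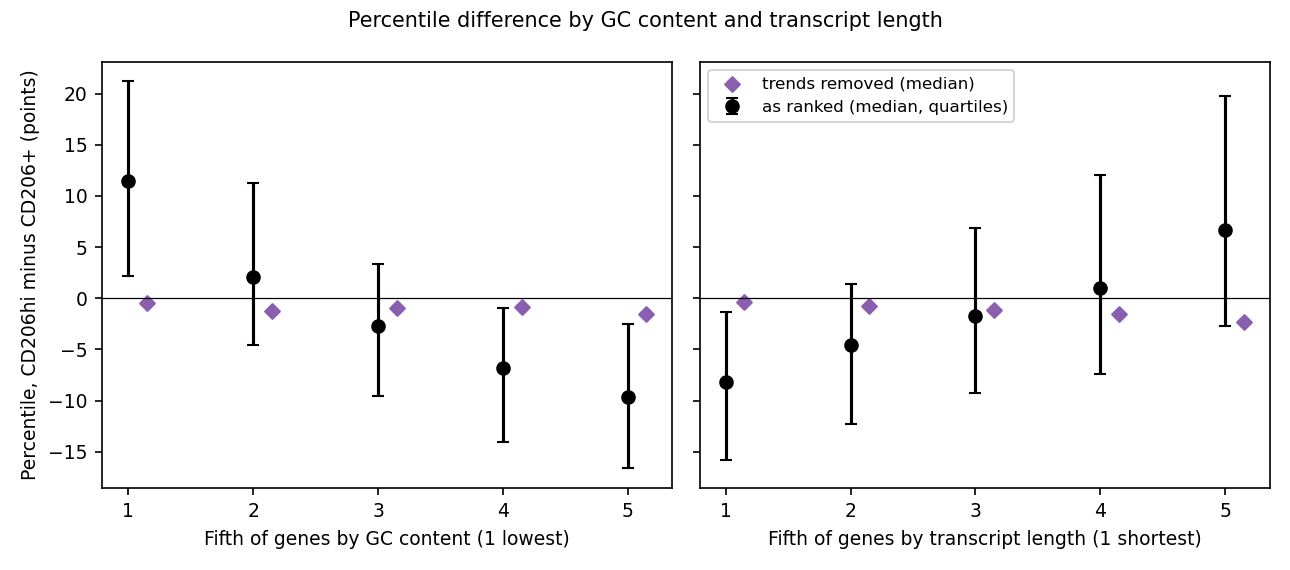
Difference in percentile (CD206hi minus CD206+, in points) in 5 groups of about equal size, with the genes ordered by GC content (left) and transcript length (right), with medians and quartiles as ranked in black and medians after removal of the trends in purple. The black medians run from 11.4 in the group of lowest GC content to −9.6 in the highest and from −8.2 in the group of shortest transcripts to 6.7 in the longest, while the purple ones lie between −2.3 and −0.4.

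Of the 13110 genes ranked, 2569 (19.6%) were called higher and 2794 (21.3%) lower in CD206hi KCs. After the GC and length trends were removed, 1558 (12.0%) of 12935 genes were higher and 1695 (13.1%) lower, and 1287 (9.95%) and 1071 (8.28%) of these had the same call before removal. On a log2 scale centred on the median gene, with a limit of 1, 2296 (17.5%) genes were higher and 4344 (33.1%) lower. That split depended on the centring. With samples centred on the ribosomal protein and respiratory chain genes of the lists, 7384 (56.3%) genes were higher and 11 (0.0839%) lower, and with samples scaled to their linear total the counts were 5047 (38.5%) and 357 (2.72%). The median gene differed by −0.54, 1.38 and 0.67 on these 3 scales. The rank calls are therefore the main ones, and log2 differences are to be read against these shifts.

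**Figure D2:**
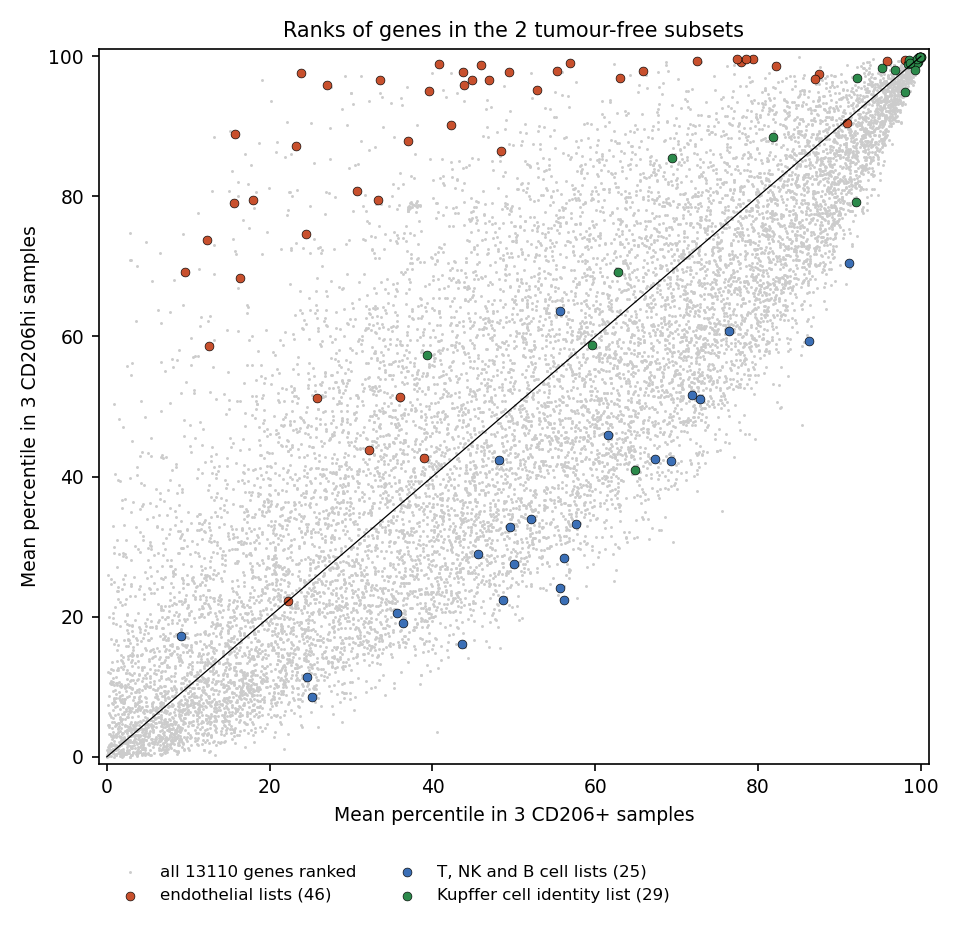
Mean percentile of each gene in the 3 CD206+ samples (horizontal) and in the 3 CD206hi samples (vertical), with all 13110 ranked genes in grey and members of the endothelial, lymphocyte and KC identity lists in colour. The endothelial members lie far above the diagonal, most KC identity members sit in the top right corner, and T, NK and B cell members mostly lie below the diagonal.

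The genes that the gates use were checked first. Mrc1, which defined the gates and is no finding, was at percentiles 95.3, 92.9 and 94.1 in CD206+ KCs and 99.7, 99.3 and 99.7 in CD206hi KCs. The subsets did not overlap, and the log2 difference was 1.77 centred on the median gene, 3.69 centred on ribosomal and respiratory genes and 2.99 scaled to the total. Timd4, which encodes TIM4, stood at 98.5 to 98.8 and 98.9 to 99.2, and Adgre1, which encodes F4/80, at 99.5 to 99.6 and 99.6 to 99.8. Ptprc, which encodes the pan-leukocyte antigen CD45, was at 87.7, 77.2 and 86.8 in CD206+ and 96.7, 96.7 and 98.3 in CD206hi KCs, 13.3 points higher, and at a difference of 2.4 points without a call once the trends were removed. Of the genes behind the exclusion gates, Cd3e, Ncr1 and Ly6g were lower in rank in CD206hi KCs, with and without the trends.

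Genes that define KCs were at or near the top of both subsets. Of the 29 members of the KC identity list, all of them ranked, 2 were higher and 2 lower in CD206hi KCs, and the median difference was 0.0 points, against −1.9 points over all genes. Clec4f, the C-type lectin that marks KCs, was between 99.95 and 99.98 in all 6 samples. Vsig4, the complement receptor of KCs, stood between 99.6 and 99.8, Cd5l, a secreted scavenger protein, between 99.89 and 99.95, Csf1r, the receptor for the macrophage growth factor CSF1, at 99.9, and Marco, a scavenger receptor, between 98.5 and 99.7. On the log2 scale the sign of the list median followed the centring, at −1.36 centred on the median gene, 0.56 centred on ribosomal and respiratory genes and −0.14 scaled to the total. Over all genes these medians were −0.54, 1.38 and 0.67, so the list lay below them on each scale. Centred on the median gene, 16 members were lower and 1 higher, where the percentile of most leaves no room for a call. As a share of the linear total, the list came to 9.88% to 12.6% in CD206+ and 6.03% to 7.06% in CD206hi KCs, so the subsets did not overlap. In such sorted bulk samples, fewer cells of a type and less RNA per cell cannot be told apart.

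The 4 KC identity genes with a call were not among the most abundant. Cd207, which encodes langerin, was at 91.8, 96.2 and 88.1 in CD206+ and 73.6, 84.6 and 79.5 in CD206hi KCs, 12.8 points lower. Paqr9 was at 62.2, 69.2 and 63.3 against 39.2, 43.9 and 39.9, 23.9 points lower. Kcna2, a potassium channel subunit, was 16.1 points higher and Xlr 17.97 points higher. After the trends were removed, Paqr9 kept its call, with a difference of −37.2, while Cd207, Kcna2 and Xlr had none, with differences of −9.5, −0.3 and 10.3.

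Of 20 transcription factors of KCs, 3 were higher and 3 lower, against 19.6% and 21.3% of all genes, shares that the list did not reach, and 1 and 2 were so with the trends removed. As a share of the linear total the list was lower in CD206hi KCs, at 0.370% to 0.418% against 0.560% to 0.596%, without overlap. Its median log2 difference was −1.13, 0.79 and 0.09 on the 3 scales. Maf, a factor of macrophage identity, was the largest rise, at 66.0, 59.2 and 62.7 in CD206+ and 92.5, 89.3 and 94.1 in CD206hi KCs, 29.3 points higher and 21.8 with the trends removed. Zeb2, which maintains the identity of KCs, was 17.2 points higher and Rbpj, the nuclear effector of Notch signalling, 10.1, and neither was called with the trends removed (2.3 and −3.9). Cebpa was at 58.3, 65.4 and 53.4 against 22.9, 33.7 and 24.8, 31.9 points lower, and it kept its call at −21.9. Batf3 and Cebpb were 24.9 and 17.2 points lower, without a call once the trends were removed. Id3 stood at 98.6, 98.9 and 98.7 in CD206+ and 98.8, 98.8 and 96.4 in CD206hi KCs, so the subsets overlapped. Nr1h3, which encodes the sterol receptor LXRα, was at 99.3 to 99.6 and 98.4 to 98.8. Spi1, which encodes PU.1, was at 92.4, 98.9 and 95.1 against 93.0, 98.5 and 72.9, and the low value was that of replicate 3, which was also the lowest of the CD206hi samples for Id3 and Id1.

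**Figure D3:**
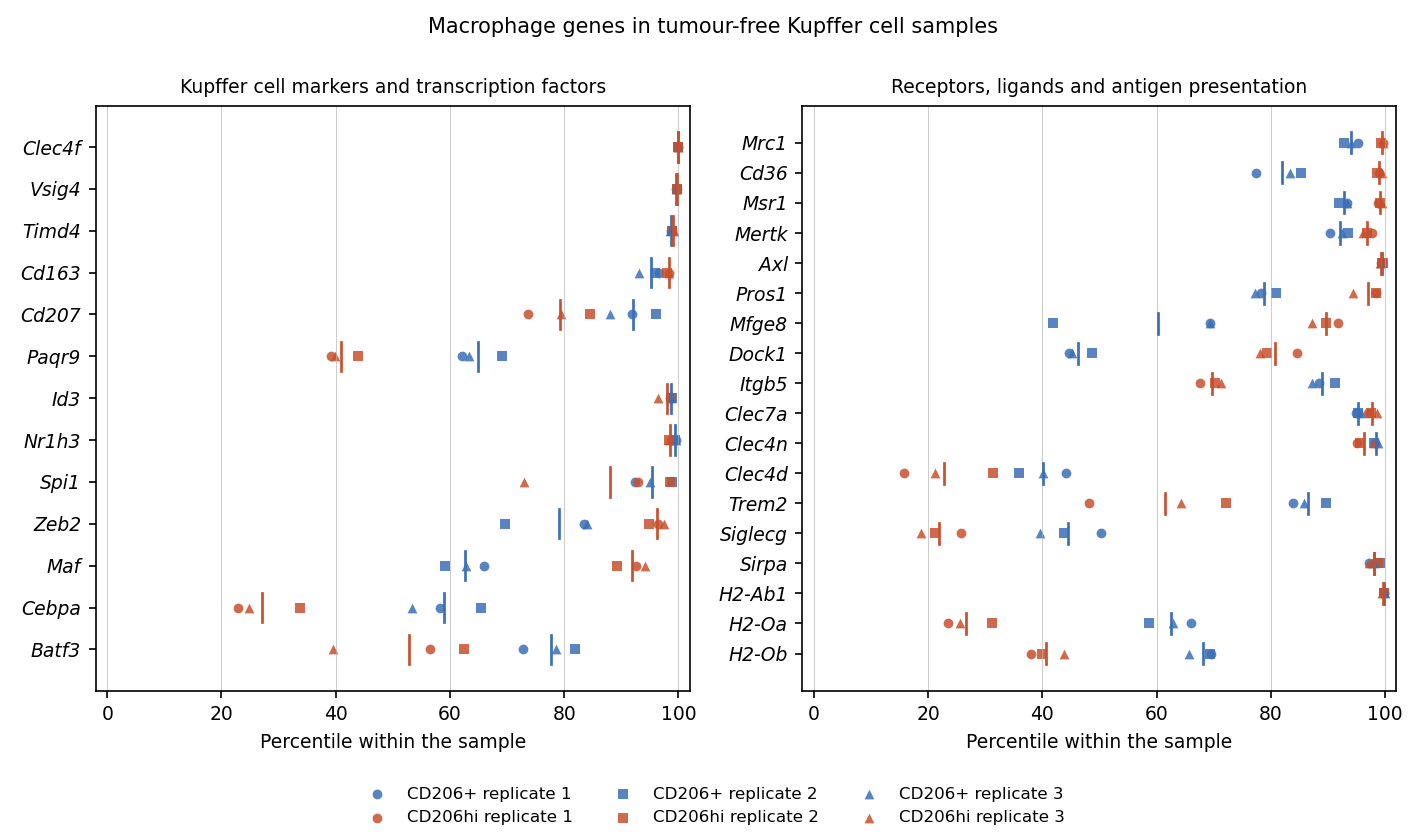
Percentile within each of the 6 tumour-free samples for KC markers and transcription factors (left) and for receptors, ligands and antigen presentation genes (right), with CD206+ KCs in blue, CD206hi KCs in red, a symbol shape per replicate and vertical bars at the subset means. Clec4f, Vsig4, Timd4 and H2-Ab1 coincide near 100, Maf, Pros1 and Dock1 separate to the right in CD206hi KCs, and Paqr9, Cebpa, H2-Oa and Trem2 separate to the left.

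Genes of endothelial cells made up the clearest difference between the subsets. Of the 50 members of the sinusoidal and pan-endothelial lists 46 were ranked, and 37 of these (80.4%) were higher and 0 lower in CD206hi KCs, against 19.6% and 21.3% of all genes. With the trends removed, 38 were higher and 0 lower. The median difference was 24.1 points over the 18 ranked sinusoidal members and 50.1 over the 28 ranked pan-endothelial members. On the log2 scale both lists were higher under each centring, with medians of 3.62, 5.54 and 4.84 for the sinusoidal list and of 4.02, 5.94 and 5.24 for the pan-endothelial list. The lists made up 0.204%, 0.127% and 0.173% of the linear total in the CD206+ samples and 2.48%, 1.67% and 2.15% in the CD206hi samples. No CD206hi sample came near the CD206+ range. Whether these transcripts lay in the KCs or in endothelial cells, or pieces of them, within the CD206hi gate cannot be told apart in these samples, and their part in other differences was not tested.

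**Figure D4:**
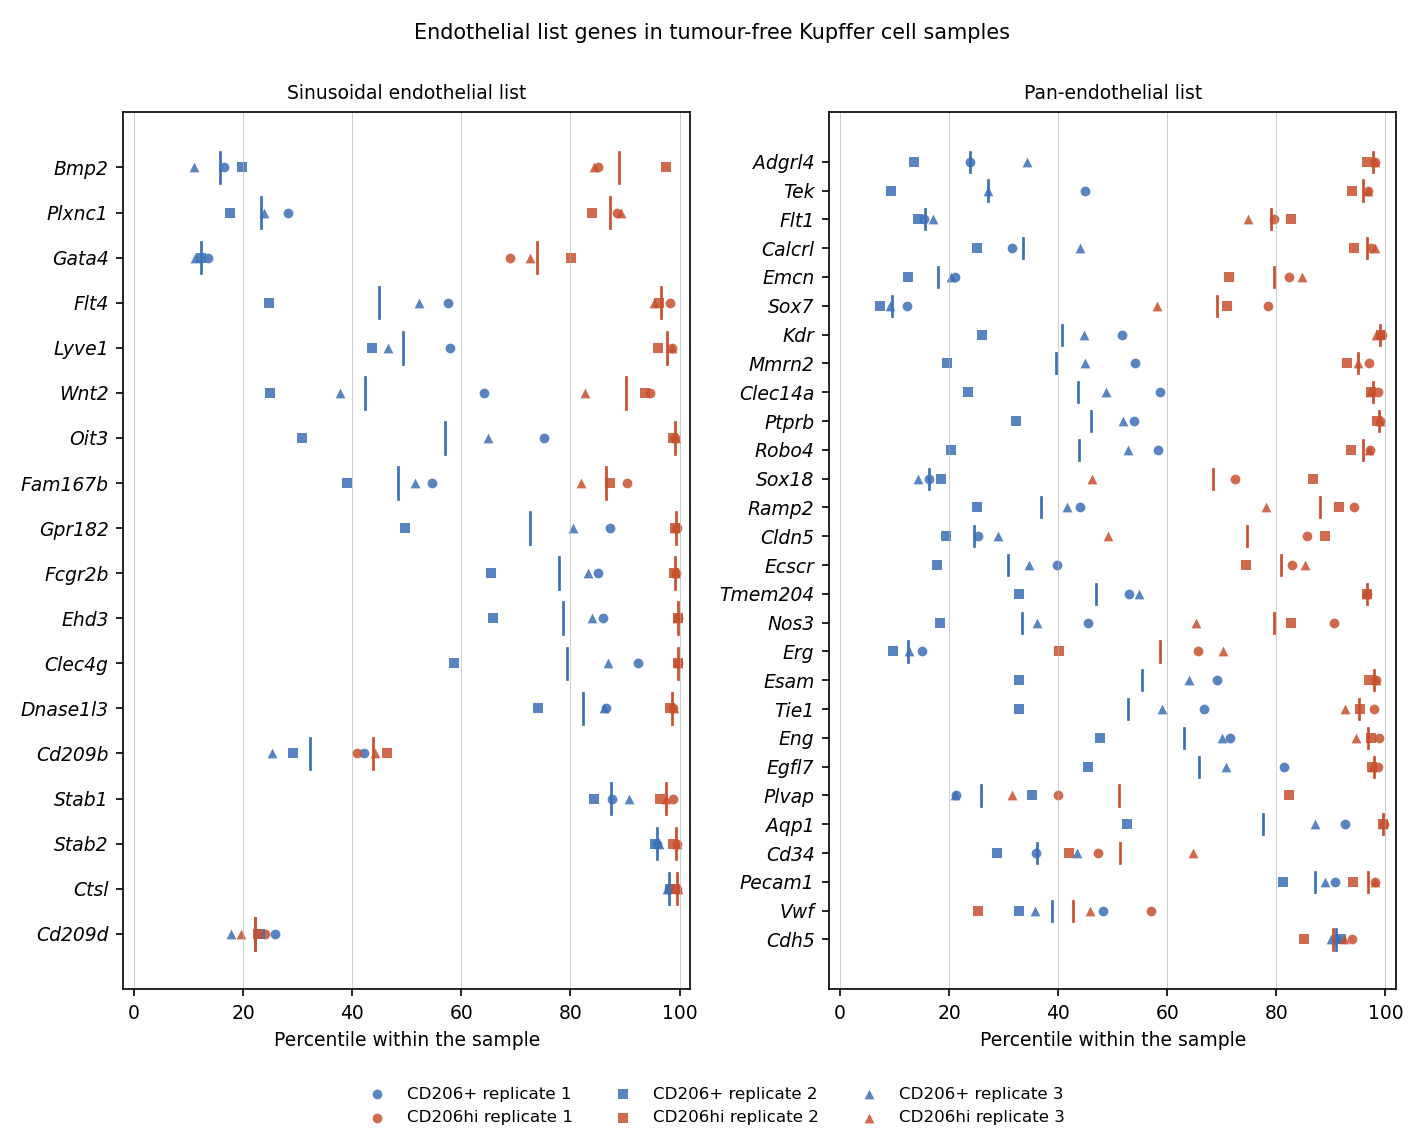
Percentile within each of the 6 tumour-free samples for the 18 ranked sinusoidal (left) and the 28 ranked pan-endothelial (right) list genes, ordered by their difference, with CD206+ KCs in blue, CD206hi KCs in red, a symbol shape per replicate and vertical bars at the subset means. The red symbols lie to the right of the blue ones for 37 genes with a call, while Cd209d, Vwf and Cdh5 overlap, and the blue square of CD206+ replicate 2 is mostly the lowest value of a row.

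Among genes of sinusoidal endothelium, 14 of the 18 ranked members were higher, and Rspo3 and Wnt9b did not reach the filter in CD206+ KCs. Lyve1, a hyaluronan receptor, was at 57.9, 43.6 and 46.5 in CD206+ and 98.6, 96.1 and 98.6 in CD206hi KCs, 48.4 points higher. Oit3 was at 75.1, 30.7 and 64.9 against 99.2, 98.7 and 99.3, and Clec4g, a C-type lectin of these cells, at 92.3, 58.7 and 87.0 against 99.7, 99.7 and 99.7. The values of CD206hi KCs were tight and those of CD206+ KCs wide, with replicate 2 the lowest. Gata4, the transcription factor that specifies sinusoidal endothelium, was at 13.5, 12.2 and 11.2 against 68.9, 80.1 and 72.5, 61.5 points higher. Plxnc1, a semaphorin receptor, was 64.0 points higher. Fcgr2b, the inhibitory Fc gamma receptor that is abundant in sinusoidal endothelium, was at 85.1, 65.5 and 83.2 against 99.3, 99.0 and 99.4. The 2 stabilins, scavenger receptors that KCs make too, differed less. Stab1 was 10.0 points higher, just at the limit, and had no call with the trends removed (8.4), and Stab2 stood at 95.5 to 96.1 and 98.9 to 99.6, without overlap but 3.5 points apart. Ctsl, a lysosomal protease, was 1.5 points apart, and Cd209b and Cd209d overlapped.

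Among pan-endothelial genes, 23 of the 28 ranked members were higher. Kdr, the main receptor for VEGF-A, was at 51.6, 26.0 and 44.8 in CD206+ and 99.3, 99.2 and 98.2 in CD206hi KCs, 58.1 points higher, with log2 differences of 6.06, 7.98 and 7.28 on the 3 scales. Tek, the receptor for angiopoietins, was at 44.9, 9.3 and 27.1 against 96.7, 93.9 and 96.8, 68.7 points higher. Adgrl4, an adhesion receptor of endothelium, was 73.8 points higher and Calcrl, a receptor subunit for adrenomedullin, 63.0. The endothelial transcription factors moved with these receptors. Sox7 was at 12.4, 7.3 and 9.1 against 78.4, 71.0 and 58.0, Sox18 was 52.0 points higher, and Erg was at 15.03, 9.8 and 12.7 against 65.6, 40.2 and 70.2. Some members did not follow. Cdh5, which encodes VE-cadherin, was at 90.9, 91.9 and 90.1 in CD206+ and 93.9, 84.996 and 92.4 in CD206hi KCs, and Vwf at 48.2, 32.8 and 35.7 against 57.0, 25.2 and 45.8. Pecam1 did not overlap and was 9.8 points higher. Plvap and Cd34 overlapped, at 25.4 and 15.2 points, and with the trends removed Plvap was called higher. Taken within the shared replicate number, which the labels do not tie to the same animals, both were higher, and the count was 25 of 28.

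The spread among the CD206+ samples was part of this pattern. CD206+ replicate 2 had the lowest percentile of its subset in 38 of the 46 ranked endothelial members, replicate 3 in 8 and replicate 1 in 0. The median member lay 1.50 log2 units lower in replicate 2 than in the mean of the other CD206+ samples. Without this replicate 13 sinusoidal and 23 pan-endothelial members were still higher, and the medians were 15.3 and 43.7 points.

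The 15 genes with the largest rise in rank included Adgrl4, Bmp2 and Tek from the endothelial lists, and the rest were in neither of them. F8, coagulation factor VIII, which is made by sinusoidal endothelium, was at 20.6, 14.7 and 21.9 in CD206+ and 97.6, 93.9 and 98.4 in CD206hi KCs, 77.5 points higher, the most of all genes. Next came Sema6a, a semaphorin, at 12.4, 11.1 and 15.9 against 91.5, 91.6 and 82.4, Phldb2 at 74.2 points and Cav2, which encodes a caveolin, at 73.5. Itga8, an integrin subunit, was at 5.6, 2.0 and 0.9 against 86.8, 61.2 and 76.1. Clec1a, a lectin of endothelial and myeloid cells, was at 3.8, 4.0 and 6.7 against 72.1, 67.3 and 81.0. Myct1, Msrb3, Enpep, Lama4, Dmd and F2r, the thrombin receptor, were 68.1 to 69.0 points higher. With the trends removed all 15 kept their call, and those outside the endothelial lists differed by 43.5 to 69.8. Timp3, an inhibitor of metalloproteinases, and Pcdh17, a protocadherin, were among the 10 largest log2 differences centred on the median gene, at 5.94 and 5.90, and stood at 7.86 and 7.82 centred on ribosomal and respiratory genes and at 7.16 and 7.12 scaled to the total.

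Secreted factors by which endothelium acts on its neighbours were higher as well. Of the 18 angiocrine factors listed 14 were ranked, and 9 (64.3%) of these were higher and 2 (14.3%) lower. Over all genes the shares were 19.6% and 21.3%. With the trends removed 7 were higher and 2 lower. Bmp2, a ligand that controls hepcidin in hepatocytes, was at 16.5, 19.8 and 10.95 in CD206+ and 85.03, 97.5 and 84.3 in CD206hi KCs, 73.2 points higher. Bmp6, its partner in iron control, was at 0.4, 1.6 and 0.3 against 23.1, 41.0 and 34.7. Wnt2, a growth factor for hepatocytes, was 48.0 points higher, Hgf, hepatocyte growth factor, 35.7, and Angpt2, an antagonist of Tek, 50.3. Csf1, the growth factor on which KCs depend, was at 31.5, 33.1 and 29.5 against 54.0, 78.7 and 47.7, 28.8 points higher. Kitl and Edn1 were higher by 29.3 and 10.4 points without a call once the trends were removed. Pdgfb and Cx3cl1 were lower, by 25.1 and 24.0 points.

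In the list of Notch, TGF-beta and BMP signalling, 10 (43.5%) of the 23 ranked members were higher and 1 (4.3%) was lower. Over all genes 19.6% were higher and 21.3% lower. With the trends removed the counts were also 10 and 1. Dll4, the Notch ligand of endothelium, was at 26.8, 8.8 and 30.7 in CD206+ and 84.4, 81.2 and 66.5 in CD206hi KCs, 55.2 points higher. The receptors divided. Notch4, which is endothelial, was at 3.5, 4.2 and 3.9 against 33.1, 27.1 and 28.9, Notch1 was 13.2 points higher, and Notch2 was 11.6 points lower. Bmpr2, a BMP receptor, was 40.2 points higher, Eng, a co-receptor for TGF-beta family ligands, 33.9, Ltbp4, which holds latent TGF-beta in the matrix, 56.6, and Tgfbr1 19.96, of which Tgfbr1 had no call with the trends removed (−1.2). Of 28 ranked adhesion molecules and integrins 9 (32.1%) were higher and 2 (7.1%) lower, and 9 and 5 with the trends removed. Itga1, a collagen receptor subunit, was at 17.8, 20.1 and 24.8 against 91.9, 81.6 and 89.9, and Jam2, a junctional adhesion molecule, at 39.2, 22.1 and 27.2 against 96.2, 90.0 and 84.4. Itga4 was called higher by 15.4 points as ranked and lower by 11.1 with the trends removed, so its direction is not settled. Itgax, which encodes CD11c, was at 72.8, 67.8 and 77.7 against 38.0, 43.6 and 49.2, 29.2 points lower.

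**Figure D5:**
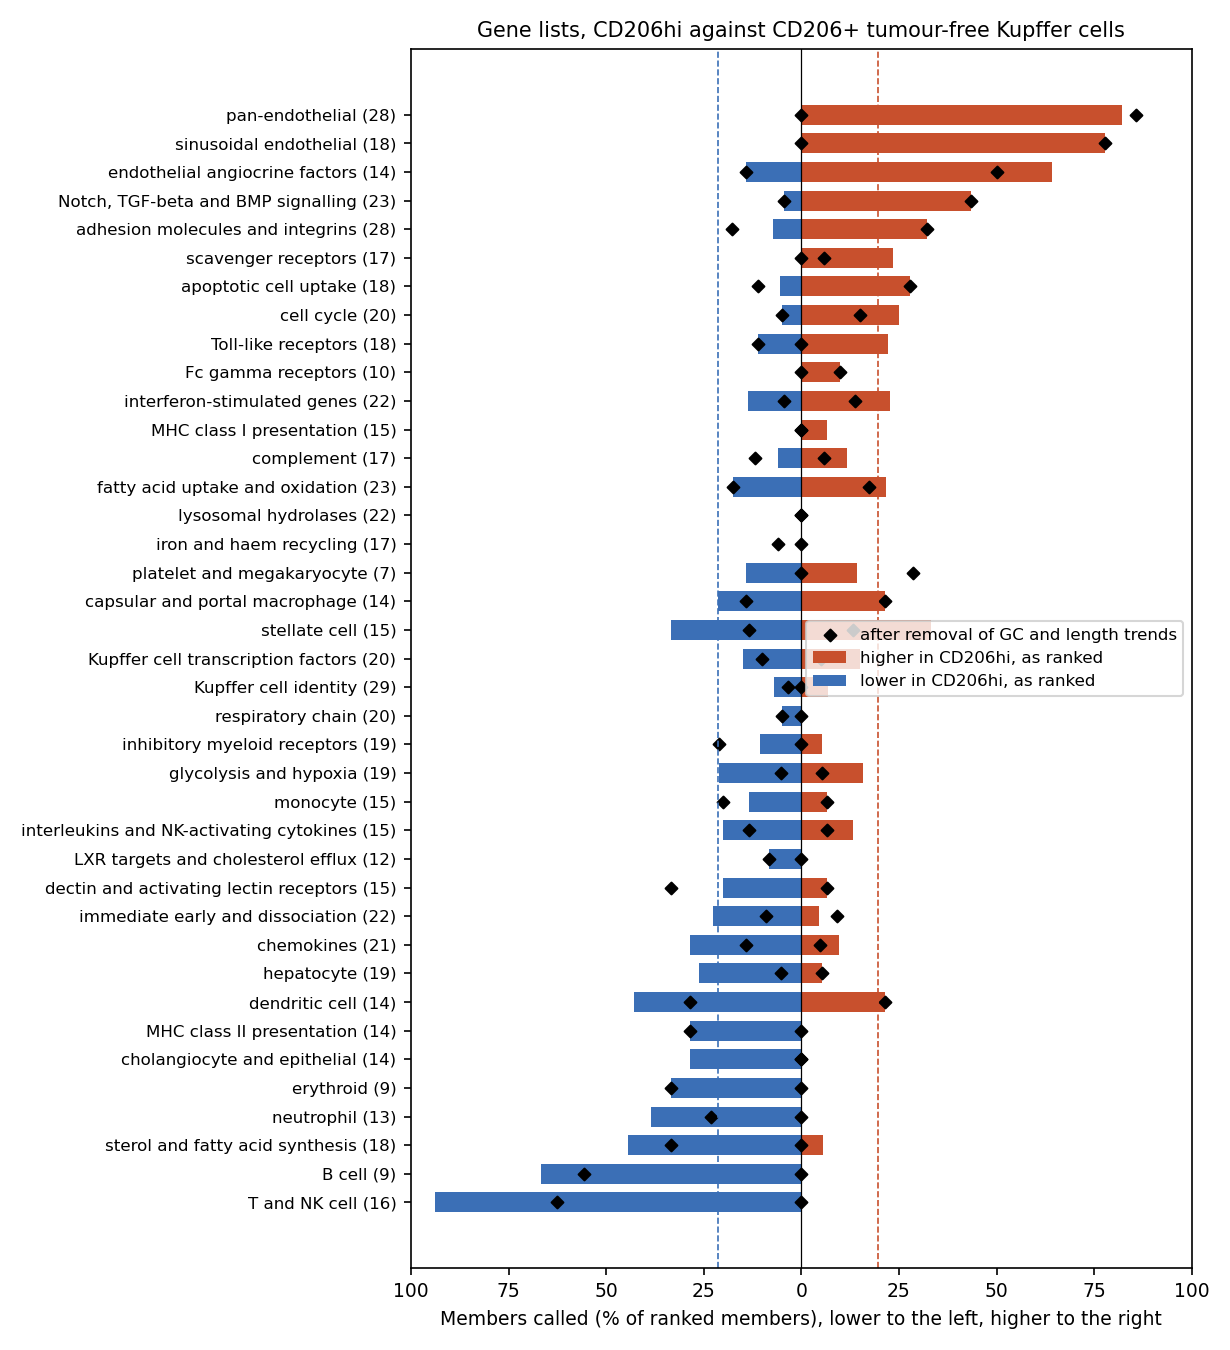
Share of the ranked members of each gene list plotted (number in brackets) called higher (red, to the right) or lower (blue, to the left) in CD206hi KCs, with black diamonds for the shares after removal of GC and length trends and dashed lines at the shares of all genes, 19.6% and 21.3%. The endothelial lists reach furthest to the right and the T and NK cell and B cell lists furthest to the left, while KC identity, lysosomal and iron lists lie close to 0.

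Scavenger receptors take up lipids and particles. Of the 17 ranked members 4 (23.5%) were higher, near the 19.6% of all genes, and 0 lower, and 1 and 0 with the trends removed. Cd36, which takes up oxidized lipoproteins and fatty acids, was at 77.4, 85.3 and 83.3 in CD206+ and 98.9, 98.7 and 99.5 in CD206hi KCs, 17.0 points higher, and its difference of 9.8 with the trends removed was just short of the limit. Msr1, scavenger receptor A, was at 93.3, 91.9 and 93.3 against 98.7, 99.1 and 99.4, without overlap. Colec12 and Olr1 were higher by 21.1 and 14.5 points, without a call once the trends were removed (−0.6 and 4.8).

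For the uptake of dying cells, 5 (27.8%) of 18 ranked genes were higher and 1 (5.6%) lower, against 19.6% and 21.3% of all genes. With the trends removed 5 were higher and 2 lower, against 12.0% and 13.1%. As a share of the linear total the list was lower in CD206hi KCs, without overlap. It came to 3.26% to 4.47% in CD206+ and 1.85% to 2.02% in CD206hi KCs. Its median log2 difference was 0.01, 1.93 and 1.23 on the 3 scales. Pros1, a bridging ligand of the TAM receptors, was at 78.3, 81.0 and 77.3 in CD206+ and 98.5, 98.4 and 94.4 in CD206hi KCs, 18.2 points higher. Mfge8, a bridge from phosphatidylserine to integrins, was at 69.4, 41.9 and 69.4 against 91.9, 89.8 and 87.2, and Dock1, which acts in engulfment downstream of those receptors, at 44.8, 48.7 and 45.3 against 84.6, 79.4 and 78.1. Of the integrin subunits that pair with the αv chain, Itgb3 was 23.7 points higher and Itgb5 19.3 lower, both also with the trends removed. Gas6, the other TAM ligand, was at 41.5, 65.8 and 43.1 against 70.6, 94.3 and 62.4. Its ranges overlapped, but within each replicate number it was higher. The TAM receptors themselves were abundant in both subsets, Axl at 99.2 to 99.6 and Mertk at 90.5 to 93.5 and 96.1 to 97.7.

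In fatty acid uptake and oxidation, 5 of 23 ranked members were higher and 4 lower, near the background, and 4 and 4 with the trends removed. Fabp4, a fatty acid binding protein of macrophages, fat and endothelium, was at 57.5, 34.5 and 48.1 in CD206+ and 96.1, 90.3 and 94.9 in CD206hi KCs, 47.1 points higher. Gpihbp1, which holds lipoprotein lipase on endothelium, was at 85.8, 40.7 and 79.7 against 99.0, 98.3 and 98.9. Fabp5 was 13.6 points higher and Etfdh 10.0, the latter at the limit and without a call once the trends were removed. Cpt2, Slc27a1, Slc27a4 and Slc25a20, which bring fatty acids into cells or mitochondria, were 10.9 to 23.9 points lower.

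Dectins and other lectin receptors bind sugars of microbes and of dying cells. In the list of dectins and activating lectin receptors, 1 of 15 was higher and 3 lower, the latter a share just under the background of 21.3%. With the trends removed 1 was higher and 5 lower, above the 13.1% of all genes lower on that scale. As a share of the linear total the list was lower in CD206hi KCs, at 0.317% to 0.466% against 0.472% to 0.543%, without overlap. Its median log2 difference was −1.31, 0.61 and −0.09 on the 3 scales. Clec7a, dectin-1, was at 94.9, 95.3 and 95.8 in CD206+ and 97.0, 97.6 and 98.6 in CD206hi KCs, and Clec4n, dectin-2, at 98.3, 98.2 and 98.7 against 95.2, 95.6 and 98.1, each within 2.4 points and neither with overlap. Clec4d, which pairs with dectin-2, was at 44.2, 36.0 and 40.1 against 15.8, 31.4 and 21.2, 17.3 points lower. Trem2, a lipid-sensing receptor, was 24.9 points lower and Trem1 24.6, all 3 also with the trends removed. Clec9a, a receptor for dead cells found on dendritic cells, was 28.4 points higher.

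The list of inhibitory receptors has 19 members, among them the ligand genes Cd47 and Cd24a. Of these 19, 1 was higher and 2 (10.5%) lower, below the 21.3% of all genes. With the trends removed 0 were higher and 4 lower, above the 13.1% of all genes lower on that scale. Siglecg, a receptor for CD24, was at 50.3, 43.8 and 39.6 in CD206+ and 25.7, 21.2 and 18.8 in CD206hi KCs, 22.7 points lower, and its ligand gene Cd24a was 13.6 points lower. Cd200r1 was 11.2 points higher, without a call once the trends were removed. Sirpa, which binds CD47, stood at 97.2 to 99.1 and 97.1 to 98.8, and Lrp1, a receptor for calreticulin on dying cells, at 98.9 to 99.1 and 98.02 to 98.7. Of the 10 Fc gamma receptor genes Fcgr2b, described above, was the only one with a call.

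Toll-like receptor genes moved with the GC and length trends. Of 18 members 4 (22.2%) were higher and 2 (11.1%) lower as ranked, near the 19.6% and under the 21.3% of all genes. With the trends removed 0 were higher and 2 lower. As a share of the linear total the list was lower in CD206hi KCs, at 0.281% to 0.290% against 0.361% to 0.419%, without overlap. Its median log2 difference was −0.49, 1.43 and 0.73 on the 3 scales. Tlr4, the receptor for lipopolysaccharide, was at 79.7, 72.3 and 76.9 in CD206+ and 93.1, 89.6 and 96.0 in CD206hi KCs, 16.6 points higher as ranked and 3.4 with the trends removed. Tlr3, Tlr7 and Tlr8 went from 23.4, 13.7 and 17.9 points to 5.3, −2.2 and 3.3. Tlr9, the receptor for CpG DNA, was lower in both, by 15.1 and 10.3 points, and Ticam1, the adaptor of TLR3 and TLR4, was 19.8 points lower as ranked.

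Of 21 chemokines 2 (9.5%) were higher and 6 (28.6%) lower, against 19.6% and 21.3% of all genes, and 1 and 3 with the trends removed. As a share of the linear total the list was lower in CD206hi KCs, at 0.24% to 0.27% against 0.31% to 0.38%, without overlap. Its median log2 difference was −0.91, 1.01 and 0.31 on the 3 scales. Ccl3, Ccl4 and Ccl5, which attract lymphocytes, were 16.3, 22.4 and 19.7 points lower, and none of them was called with the trends removed (−7.8, −7.6 and 1.0). Ccl5 was at 79.2, 62.1 and 74.8 in CD206+ and 53.9, 46.0 and 57.1 in CD206hi KCs. Ccl22 was 27.6 points lower, Ccl12 14.8 and Cx3cl1 24.0, and these 3 kept their calls. Cxcl9, an interferon-induced ligand of CXCR3, was higher by 21.1 points and Cxcl13, which attracts B cells, by 12.6, without a call for either once the trends were removed. Ccl6 was at 99.3 to 99.6 in all samples, and Ccl2 and Ccl7 overlapped.

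In the list of interleukins and NK-activating cytokines, 2 of 15 ranked members were higher and 3 lower, and 1 and 2 with the trends removed. Il1a was at 79.8, 79.5 and 79.2 in CD206+ and 93.9, 91.6 and 95.6 in CD206hi KCs, 14.2 points higher, and 8.1 with the trends removed. Tnfsf10, which encodes the death ligand TRAIL, was at 44.7, 34.8 and 52.0 against 82.0, 67.0 and 88.6, 35.4 points higher, and kept its call. Tnf was 23.6 points lower, and Ebi3 and Il27, the chains of interleukin-27, were 20.3 and 18.2 points lower, none with a call once the trends were removed. Il15 was at 79.9, 71.5 and 77.7 against 67.4, 60.6 and 73.9 and Il18 at 88.5, 87.5 and 91.8 against 78.9, 77.2 and 91.4, so both overlapped, and both were lower within each replicate number, by less than 10 points on average. Il12a and Il12b were low and overlapped.

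Interferon-stimulated genes went both ways, with 5 (22.7%) of 22 higher and 3 (13.6%) lower, against 19.6% and 21.3% of all genes. With the trends removed 3 were higher and 1 lower. Ifit1, Ifit2, Gbp3, Rsad2 and Ifi44 were 14.6 to 34.8 points higher, the first 3 of them also with the trends removed. Oas3, Isg15 and Oasl1 were 21.3, 16.8 and 10.97 points lower, and Oas3 kept its call. Among 14 ranked MHC class II genes 4 (28.6%) were lower and 0 higher, with and without the trends. H2-Ab1, a classical chain, and Cd74, the invariant chain, stood at 99.5 or above in all samples, where the percentile leaves no room for a call. On the log2 scale H2-Ab1 differed by −2.65, −0.73 and −1.43 and Cd74 by −1.89, 0.03 and −0.68 on the 3 scales. The median of the list was −2.13, −0.21 and −0.91, below 0 on each, and 10 of the 14 members were lower centred on the median gene. Of the members with a call, H2-Oa and H2-Ob, the chains of the DO molecule that restrains peptide loading in B cells, were at 66.0, 58.7 and 62.9 against 23.4, 31.2 and 25.6 and at 69.5, 69.4 and 65.7 against 38.0, 39.9 and 43.9. H2-DMb2 was 26.7 points lower and Cd40, the receptor for T cell help, 13.2. Of 15 MHC class I genes 1 was higher. Of 17 ranked complement genes 2 (11.8%) were higher and 1 (5.9%) lower, and 1 and 2 with the trends removed. As a share of the linear total this list was lower in CD206hi KCs, at 2.18% to 2.52% against 3.95% to 5.32%, without overlap. Its median log2 difference was −1.41, 0.51 and −0.20 on the 3 scales. Cd55, which stops the complement cascade on cell surfaces, was at 67.3, 58.9 and 66.5 against 97.8, 96.8 and 97.3, 33.04 points higher, and kept its call with the trends removed.

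Most ranked lymphocyte genes were lower in rank in CD206hi KCs. Of the 16 ranked T and NK cell members 15 (93.8%) were lower and 0 higher, against 21.3% of all genes lower, and 10 were lower with the trends removed. The median difference was −17.7 points, and −13.0 with the trends removed. On the log2 scale the sign of the median followed the scale, at −1.57, 0.35 and −0.35 for T and NK cells and −1.80, 0.12 and −0.58 for B cells. Cd8a, a T cell co-receptor, was at 51.6, 34.8 and 44.6 in CD206+ and 16.3, 14.2 and 17.8 in CD206hi KCs, 27.5 points lower. Cd3d was 26.3 points lower, Cd2 27.9 and Gzma, a granzyme, 27.1, while Gzmb overlapped at −18.0 and was lower within each replicate number, which made 16 of 16. Of the 9 ranked B cell members 6 were lower and 0 higher, and 5 and 0 with the trends removed. Cd79a, a chain of the B cell receptor, was at 86.2, 87.8 and 84.9 against 57.8, 60.4 and 59.95, 26.9 points lower. Cd79b, Blk, Fcmr and Fcer2a were 20.7 to 33.8 points lower. As a share of the linear total, the B cell list came to 0.0283% to 0.0329% in CD206+ and 0.0172% to 0.0180% in CD206hi KCs, without overlap. The T and NK cell list came to 0.0181% to 0.0277% and 0.0164% to 0.0185%, and these ranges overlapped. Trac, Klra8 and Eomes of the first list and Pax5, Ighm, Ighd and Ebf1 of the second were not ranked. Of these, Klra8, Pax5 and Ebf1 reached the filter in the CD206hi samples alone. The part of residual lymphocytes in other differences was not tested.

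Of the 13 ranked neutrophil genes 5 (38.5%) were lower and 0 higher, against 21.3% and 19.6% of all genes. With the trends removed 3 were lower. Taken within the replicate number that the subsets share, 11 were lower, and without CD206hi replicate 3 the count was also 11. Mpo, myeloperoxidase, was at 35.9, 14.6 and 71.1 in CD206+ and 4.6, 1.4 and 4.7 in CD206hi KCs, 36.9 points lower. S100a8 was at 75.0, 74.9 and 85.1 against 46.8, 47.9 and 74.8, and S100a9 was 24.1 points lower. Camp was at 40.6, 21.9 and 55.3 against 13.4, 4.7 and 39.9, and Ngp at 67.1, 35.2 and 81.7 against 33.6, 11.5 and 74.3. For the genes given here replicate 3 was the highest of its subset. As a share of the linear total the list came to 0.0365% to 0.0576% in CD206+ and 0.0246% to 0.0441% in CD206hi KCs, which overlapped. Elane was not ranked.

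Markers of other cells were counted in the same way, to be read against the 19.6% of all genes called higher and the 21.3% called lower. Of 19 ranked hepatocyte genes 1 was higher and 5 were lower, and 1 and 1 with the trends removed. Stellate cell genes numbered 5 higher and 5 lower of 15, and 2 and 2 with the trends removed, and Bgn, a matrix proteoglycan, was the largest of them at 25.004 to 38.6 against 85.3 to 92.2, 55.9 points higher. Of 14 cholangiocyte and epithelial genes 0 were higher and 4 lower, and none with the trends removed. Monocyte genes numbered 1 higher and 2 lower of 15, platelet genes 1 and 1 of 7, and erythroid genes 0 and 3 of 9. Of 14 dendritic cell genes 3 (21.4%) were higher and 6 (42.9%) lower. Zbtb46, a factor of classical dendritic cells and endothelium, and Tcf4, of plasmacytoid dendritic cells, were 29.1 and 36.0 points higher, and Ccr7, the lymph node homing receptor, 32.8 lower. Of 14 genes of capsular and portal macrophages 3 were higher and 3 lower. Retnla, a resistin-like gene of alternatively activated macrophages, was at 58.7, 49.6 and 46.0 against 93.1, 90.5 and 87.6, 39.0 points higher, and Mgl2, a galactose-binding lectin, was 19.8 points higher, both also with the trends removed.

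Housekeeping and metabolic lists held few rank calls, and several of them lie where the percentile leaves little room for one. No member of the ribosomal protein, lysosomal hydrolase or iron and haem recycling lists had a call as ranked, out of 20, 22 and 17, and 1, 0 and 1 were lower with the trends removed. Their median percentiles in CD206+ KCs were 96.8, 98.3 and 98.8. On the log2 scale centred on the median gene 18, 15 and 11 members were lower, and the list medians turned from −1.85, −1.55 and −1.76 on that scale to 0.07, 0.37 and 0.16 centred on ribosomal and respiratory genes. As shares of the linear total, the lists came to 0.740% to 0.901%, 5.33% to 5.59% and 4.13% to 4.50% in CD206+ KCs. In CD206hi KCs they came to 0.445% to 0.637%, 4.03% to 5.01% and 2.36% to 3.39%, without overlap in any of the 3. By rank 1 of 20 respiratory chain genes was lower, against 21.3% of all genes. Glycolysis and hypoxia genes numbered 3 higher and 4 lower of 19, LXR targets 0 and 1 of 12, and immediate early genes, which tissue dissociation induces, 1 and 5 of 22. Centred on the median gene, 14 respiratory, 14 glycolysis and 9 LXR members were lower on the log2 scale. The respiratory share of the linear total was 0.36% to 0.46% in CD206hi against 0.54% to 0.62% in CD206+ KCs. The glycolysis share was 0.58% to 0.69% against 0.83% to 1.23%, and neither overlapped. By rank, sterol and fatty acid synthesis stood out among the lists of this paragraph, with 1 higher and 8 (44.4%) lower of 18. With the trends removed 0 were higher and 6 lower. The list median was −0.73, 1.19 and 0.49 on the 3 log2 scales, against −0.54, 1.38 and 0.67 over all genes. Its share of the linear total was higher in CD206hi KCs, at 0.0641% to 0.0738% against 0.0604% to 0.0621%, without overlap. In tumour-bearing liver 3 members were higher and 3 lower in rank. Fasn, fatty acid synthase, was at 82.0, 73.8 and 79.5 in CD206+ and 52.9, 41.0 and 44.2 in CD206hi KCs, 32.4 points lower, and Fdps was 16.7 points lower. Of 20 cell cycle genes 5 were higher and 1 lower, against 19.6% and 21.3% of all genes. With the trends removed 3 were higher and 1 lower, against 12.0% and 13.1%. The list as a whole did not rise in rank, with a median of −2.5 points against −1.9 over all genes. Of its members 10 lay above 0 and 10 below. On the log2 scale centred on the median gene 5 were higher and 5 lower. Mki67 was at 18.1, 25.3 and 21.5 against 51.5, 50.3 and 74.7, 37.2 points higher and 23.7 with the trends removed. Cenpe and Kif11, mitotic kinesins, were 34.8 and 24.8 points higher, Top2a and Bub1 33.2 and 19.2 without a call once the trends were removed, and Plk1, a mitotic kinase, 19.0 lower.

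The 15 genes with the largest fall in rank differed by 34.3 to 40.5 points, and all of them were also called with the trends removed. Mpo and H2-Oa, given above, were among them. Guca1a was at 79.98, 69.3 and 77.5 in CD206+ and 36.5, 37.2 and 31.6 in CD206hi KCs, 40.5 points lower, and 20.8 with the trends removed. Cacna1f, a calcium channel subunit, was at 71.8, 64.3 and 72.7 against 26.0, 28.3 and 37.6, and 39.7 points lower with the trends removed. Mir6236, Pgap3 and Hist1h1c, a linker histone, were 35.7 to 37.9 points lower. Among abundant noncoding RNAs, Malat1, a nuclear RNA, was at 88.6, 80.4 and 85.9 against 99.9, 99.8 and 99.9, with log2 differences of 4.59, 6.51 and 5.81 on the 3 scales. Rn45s, the precursor of ribosomal RNA, stood at 99.88 or above throughout and differed by −3.19, −1.27 and −1.97. The 4 Y-linked genes of the lists were all higher in CD206hi KCs, by 42.4 points for Ddx3y, 38.4 for Eif2s3y, 38.2 for Uty and 20.1 for Kdm5d, and Kdm5d had no call with the trends removed (2.0). Xist, listed with them, lay below the filter in both subsets and was not ranked. Its deposited log2 value was 0.00 in every CD206+ and −1.99 in every CD206hi tumour-free sample. The cause of the difference in the Y-linked genes was not tested.

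Some genes reached the filter in a single subset. In 923 genes all 3 tumour-free CD206hi samples reached log2(10) while all 6 CD206+ samples of the series lay below it, and in 62 genes the reverse held. These genes were not ranked. The limit is the same for tables with different scales, in which the median ranked gene of the tumour-free samples lay at 8.31 to 8.53 in CD206+ and 9.35 to 9.64 in CD206hi KCs, so these counts cannot be compared.

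The same subsets were set side by side in tumour-bearing liver, in other samples of the same 2 tables. There 2782 genes (21.2%) were higher and 3099 (23.6%) lower in CD206hi KCs, and the endothelial lists again had 38 higher and 0 lower of 46 ranked members. Endothelial genes made up 0.147% to 0.166% of the linear total in CD206+ and 1.05% to 1.27% in CD206hi KCs of tumour-bearing liver. Of the 2569 genes higher in tumour-free liver, 2056 (80.0%) were also higher in tumour-bearing liver, which is 73.9% of those higher there. Of the 2794 genes lower, 2349 (84.1%) were also lower, which is 75.8% of those lower there. Both comparisons rest on the same separately normalized tables, with rho of −0.40 with GC content and 0.45 with length in tumour-bearing liver, so the comparisons are not independent of each other.

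Promoter windows of 300 bases from RefSeq (GRCm38.p6) were matched by symbol to compare E-box, ETS, GATA and AP-1 motifs between groups of genes. A window was given for 78.7% of the ranked genes and 58.7% of the ranked endothelial members, so that comparison is void and no share is reported.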

How the data were processed

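RNA of sorted KCs was amplified with the SMART-Seq v4 kit and sequenced in a paired-end run. The submitters' processing notes name STAR 2.7.10a, HTSeq, DESeq2 and the build mm10, and which of the builds that the methods mention was used for which table is not given in the sources used here. The deposited values are log2 values with the features of a regularized log made separately in each table by the authors, although files and columns are named counts and TPM, so read depth per sample is unknown and genes with few reads are drawn towards their mean. Each table has 6 columns, and 0 columns were unmapped. The linear sums in the report stand in for depth only loosely.

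Samples were grouped by their labels. Values were joined by symbol, filtered (at least log2(10) in 3 samples of both tables), ranked within each sample and called as described above, with no test across tables. GC content and length came from the longest GENCODE M21 transcript per symbol, known for 98.7% of ranked genes, and trends were removed with cubic splines (5 degrees of freedom per property, scikit-learn 1.9.0). The procedure was tested on simulated data. Python 3.11.15, numpy 2.4.6 and pandas 2.3.3 were used.

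Members and the 42 lists were chosen with earlier results of these data known, and lists share genes. Genes named are the gate genes, the 15 largest rank and 10 largest log2 differences in each direction, of which some are given only in a range, the called and the most abundant members of each list, and receptors, chemokines and interleukins that the study names. Malat1 lies outside this rule and was named after its values were seen. Same-numbered samples of the subsets deviated together across genes (r = 0.14, 0.67 and 0.29), and the replicate block takes the numbers as pairs. The labels do not say that they share animals. CD206+ replicate 1 deviated more with CD206hi replicate 3 (0.46) than with CD206hi replicate 1 (0.14). Only for number 2 was each sample most like its same-numbered partner. Differences within a replicate number therefore rest on an assumed pairing. Alternatives were other filters, size limits, scales and centrings, the replicate block and each sample left out. The table of the Id3 deletion was not used, and a few items are not reported here.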

Additional observations from a re-analysis of the deposited data

Results flagged for a closer look

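In the 4 genes given here the difference between the subsets was called in opposite directions in tumour-free and tumour-bearing liver. The difference between the 2 settings was not tested, and both use the same 2 tables. For Ldhb, a lactate dehydrogenase subunit, the differences (CD206hi minus CD206+) were 26.0 points in tumour-free and −17.3 in tumour-bearing liver, for Mpzl2, an adhesion molecule, −10.3 and 14.2, for Prom1, which encodes CD133, −12.7 and 21.9, and for Sdc1, which encodes syndecan-1, −16.8 and 17.0. With the trends removed Sdc1 had no call in tumour-free liver, at −7.6.

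List genes that were below log2(10) in all 6 CD206+ samples and above it in all 3 tumour-free CD206hi samples were not ranked. Their values are deposited log2 values, and levels on 2 separately normalized tables are given without a difference. Of endothelial genes, Wnt9b averaged 5.76, Cyyr1 7.95, Sox17 7.78, the Notch ligand Jag1 6.05, the lymphatic growth factor Vegfc 6.51 and the selectin Sele 6.94 in CD206hi KCs. The B cell factors Pax5 and Ebf1 averaged 5.52 and 5.69 and the NK cell receptor Klra8 4.29, while the ranked members of those lists were mostly lower. The TAM receptor Tyro3 averaged 5.62, the immediate early factor Egr3 3.95, the stellate cell receptor Pdgfra 3.98 and the bile acid enzyme Cyp7a1 4.28. The CD206hi samples were widest apart for Sele, at 7.78, 5.10 and 7.95.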

How the results depend on the processing

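Filters moved single genes more than counts. The percentile difference moved by more than 1 SD between replicates in 70 of 200 genes named with no filter, in 35 (141 did not) with the filter at log2(50), and in 16 with the filter on either table, and no called gene changed direction. With no filter 6532 genes were lower on the log2 scale and 1 KC identity member was lower in rank, and with the filter at log2(50) 1 neutrophil member was lower. In place of the percentile, the log2 scale gave 4344 genes lower, 1 KC identity member higher and 16 lower. A limit of 20 points left 1384 genes higher and 887 lower, and a limit of 2 log2 units 959 and 826. The log2 counts depended most on centring, with 7384 higher and 11 lower centred on ribosomal and respiratory genes and 5047 and 357 scaled to the linear total. With GC and length trends removed, 1558 genes were higher and 1695 lower in rank, 1768 were lower on the log2 scale, and the counts were 3 for neutrophil genes lower and 0 and 1 for KC identity genes higher and lower. The cause of these changes was not tested, except that they follow from the limit or centring where that was what changed.

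With each sample left out in turn, 2550 to 2891 genes were higher and 2784 to 3295 lower in rank, and 2219 to 2552 and 4269 to 4739 on the log2 scale. Sinusoidal members higher numbered 13 to 15, pan-endothelial 23 to 25, T and NK cell members lower 15 to 15, B cell 6 to 6, neutrophil 5 to 11, and KC identity members 2 to 3 higher and 1 to 2 lower. In the replicate block, with differences taken within the shared number, 2776 genes were higher and 3308 lower in rank and 11 neutrophil members were lower, and no other count moved by over 1.5 times.

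Of 200 ranked genes named, 158 had a call, and 111 kept it with the trends removed. The difference changed sign for Kcna2 (−0.28), Rbpj (−3.9), Colec12 (−0.62), Etfdh (−0.58), Tlr7 (−2.2), Ccl5 (1.0), Il27 (2.4), Tgfbr1 (−1.2) and Itga4 (−11.1). No alternative tried could set the 2 tables on a common scale, and separate normalization, unknown depth and 3 samples per subset limit every value given.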

Other observations

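Some list genes were too low in a subset to be ranked and did not meet the limits above, and their deposited log2 values are given without a difference because the tables were normalized separately. Rspo3, a Wnt enhancer made by central vein endothelium, was at 3.21, 3.38 and 3.20 in CD206+ and 8.49, 8.69 and 7.19 in CD206hi KCs. Dll1, a Notch ligand, was at 2.91, 3.02 and 2.92 against 9.52, 8.65 and 6.75, and Jam3, a junctional adhesion molecule, at 3.03, 3.03 and 3.61 against 8.08, 7.34 and 8.12. All 3 genes were far above the filter in every CD206hi sample. Elane, neutrophil elastase, was at 6.74, 5.14 and 9.14 in CD206+ and 2.90, 2.73 and 4.49 in CD206hi KCs, with replicate 3 the highest of both subsets.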
